A study of Mus musculus with 12 samples.

Results

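Among the genes measured in the livers of mice on a methionine- and choline-deficient (MCD) diet, 4 parent genes and near-identical copies of 3 of them differed in signal between anti-Ly6G and control pools. The parents were Hmga1, Eno1, Pgk1 and Atp6v0c. The copies were Eno1b, Pgk1-rs7 and Atp6v0c-ps2. These 7 genes, of 11791 in the table, were taken by name or Ensembl ID and all 7 were found. They were selected on these values, by the difference between anti-Ly6G and control pools, which ran in opposite directions in parent and copy. For this reason every value of that comparison is given as a description, without a test. The 3 pairs are followed here through 12 pools, as separate genes and as the sum of parent and copy, and Hmga1 is followed as a single gene.

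RNA from 2 animals was mixed into each pool, and males aged 10 weeks had received the MCD diet for 3 weeks. The anti-Ly6G group, 4 pools, carried Lyzs cre and was given an antibody to Ly6G, which neutrophils carry on their surface (GR1 in the sample titles). The KO group, 4 pools, was labelled Lyzs cre p38g/d, a loss of the kinases p38g and p38d driven by Cre in cells that express lysozyme, which are mainly myeloid. The control group, 4 pools, carried Lyzs cre with neither. All pools shared the Cre, the diet, the sex, the tissue and the strain label C57BL/6. The mitochondria label was NZB in all anti-Ly6G pools and in KO pools 3 and 4, and C57 in KO pools 1 and 2 and in all control pools, with conplastic strains named in the protocol. The antibody and this label therefore cannot be told apart between anti-Ly6G and control pools. The protocol gives 12 males for every genotype although the 4 pools hold 2 animals each, and the labels do not say that pools held separate animals, so p-values measure the spread between pools.

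A retrocopy arises when a messenger RNA is reverse transcribed and inserted elsewhere in the genome. It has lost the introns of its parent and keeps the exon sequence. A short read from the shared exon sequence fits both places equally well, and how it is assigned decides which row of a table receives it. Hmga1 encodes a high mobility group protein that binds AT-rich DNA and shapes chromatin. Pgk1 encodes phosphoglycerate kinase and Eno1 encodes alpha-enolase, enzymes of the lower part of glycolysis, a pathway that hepatocytes also run in reverse to make glucose. Atp6v0c encodes the proteolipid subunit c, which forms the rotating ring of the vacuolar proton pump (V-ATPase) that acidifies lysosomes.

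To show how little separates parent from copy, 60 bases of exon sequence are printed for 2 pairs from the GENCODE vM21 transcripts (GRCm38), 5′ to 3′ on the strand of the gene, with a differing base in capitals. The first pair lies in Pgk1 and its copy, and the other surrounds the single base at which the aligned transcripts of Atp6v0c and Atp6v0c-ps2 differ.
Pgk1 (chrX:106187252-106187311, plus strand): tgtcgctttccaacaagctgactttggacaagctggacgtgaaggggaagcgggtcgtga
Pgk1-rs7 (chr12:10900181-10900240, minus strand): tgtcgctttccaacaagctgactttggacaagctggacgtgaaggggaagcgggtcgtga
Atp6v0c (chr17:24164823-24164882, minus strand): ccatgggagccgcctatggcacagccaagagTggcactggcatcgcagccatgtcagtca
Atp6v0c-ps2 (chr6:37806165-37806224, plus strand): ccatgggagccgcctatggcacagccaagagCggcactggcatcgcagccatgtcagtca

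The parents lie at chr17:27556497-27563674 (Hmga1, plus strand, up to 6 exons), chr4:150236721-150248879 (Eno1, plus strand, up to 12 exons), chrX:106187100-106203699 (Pgk1, plus strand, up to 11 exons) and chr17:24163866-24169702 (Atp6v0c, minus strand, up to 4 exons) on GRCm38, in the GENCODE vM21 annotation. Eno1b (ENSMUSG00000059040) is annotated as protein-coding at chr18:48045335-48048412, plus strand, with up to 2 exons, and is named Gm5506 in the deposited table. Pgk1-rs7 (ENSMUSG00000066632) is a processed pseudogene with 1 exon at chr12:10898986-10900240, minus strand. Atp6v0c-ps2 (ENSMUSG00000080242) is a processed pseudogene with 1 exon at chr6:37806086-37806550, plus strand, and is named Gm15487 in the deposited table. Each of the 3 copies lies on another chromosome than its parent.

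Over the whole alignment of 1 transcript from each gene, Eno1 and Eno1b matched at 1727 of 1736 bases, and 8 of their 9 differences lay in coding sequence. Pgk1-rs7 matched Pgk1 at all 1255 bases. Atp6v0c and Atp6v0c-ps2 matched at 464 of 465 bases. The longest run without a difference was 835 bases for Eno1b, 1255 for Pgk1-rs7 and 354 for Atp6v0c-ps2.

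The copies therefore held almost no sequence of their own. Of all 25-base words (25-mers) in the annotated transcripts of a gene, the share found in no other annotated gene was 9.13% for Eno1b, 0% for Pgk1-rs7 and 2.95% for Atp6v0c-ps2. Their parents had 70.7% (Eno1), 44.8% (Pgk1) and 87.7% (Atp6v0c). Hmga1 had 35.4%, so which shared reads its row received is uncertain as well. The median over 11665 genes of the table was 99.1%, and 14.0% of those genes had a value at or below that of Atp6v0c. The aligned stretch covered 85.6% of the Eno1 transcript and 68.8% of the Pgk1 transcript, but 39.3% of the Atp6v0c transcript. How reads shared between such genes were assigned, and whether strand was used, is not given in the sources used here, so the split of signal within each pair is uncertain.

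The deposited values are a normalized signal, called RPM here because each column sums to between 0.922 and 1.06 M. Every value was a whole multiple of the value of 1 read, which gave recovered depths of 13.1 to 21.0 M reads in anti-Ly6G pools, 18.8 to 22.3 M in KO pools and 14.4 to 19.9 M in control pools. A count of 0 allows up to 3 reads, a signal of 0.125 to 0.242 RPM depending on the pool, and covers counting error only. Mapk12, which encodes p38g, had 1.63, 1.79, 2.70 and 3.06 RPM in KO pools 1 to 4, against 2.08, 1.75, 2.14 and 2.71 RPM in control pools 1 to 4. The groups overlapped, in whole liver of mice whose Cre is active mainly in myeloid cells.

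Hmga1 signal was at 0.203 of the control mean in the anti-Ly6G livers. Hmga1 had 8.72, 12.1, 10.9 and 9.94 RPM in anti-Ly6G pools 1 to 4, 50, 50.9, 46.5 and 46.4 RPM in KO pools 1 to 4, and 51.4, 51.8, 46.6 and 55.6 RPM in control pools 1 to 4. Every anti-Ly6G pool lay below every KO and control pool, and the KO pools overlapped the control pools. Pools of the whole table did not overlap in this comparison for 27.3% of genes, and nothing is read from the members' own separation because it was used to choose them.

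Atp6v0c was also low in the anti-Ly6G livers, at a higher signal than Hmga1, and there most of the pair's signal stood under Atp6v0c-ps2. Atp6v0c had 35.8, 38.4, 41.2 and 40.2 RPM in anti-Ly6G pools 1 to 4, 181.5, 191.5, 180.5 and 183.9 RPM in KO pools 1 to 4, and 172.6, 175.4, 174.7 and 190.4 RPM in control pools 1 to 4. The anti-Ly6G pools lay together at 0.218 of the control mean, while KO and control pools overlapped. Atp6v0c-ps2 had 99.1, 100.9, 127.5 and 136.2 RPM in anti-Ly6G pools, which are 1568, 1990, 2674 and 1685 reads. It had 13 reads in KO pool 2 and 0 reads in KO pools 1, 3 and 4, and it had 13, 7, 12 and 6 reads in control pools 1 to 4.

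Atp6v0c-ps2 took 73.5, 72.4, 75.6 and 77.2% of the pair in anti-Ly6G pools 1 to 4, against 0.472, 0.200, 0.406 and 0.208% in control pools 1 to 4. In KO pools it took 0.357% in pool 2 and 0% in the others. The anti-Ly6G shares lay within 5 percentage points of each other. The sum of Atp6v0c and Atp6v0c-ps2 was 134.9, 139.3, 168.7 and 176.4 RPM in anti-Ly6G pools, 181.5, 192.2, 180.5 and 183.9 RPM in KO pools, and 173.5, 175.7, 175.5 and 190.8 RPM in control pools. Anti-Ly6G pools 1 to 3 lay below the lowest control pool and anti-Ly6G pool 4 lay inside the control range. The anti-Ly6G mean minus the control mean was -139.4 RPM for Atp6v0c, 115.4 RPM for Atp6v0c-ps2 and -24.0 RPM for their sum.

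**Figure D1:**
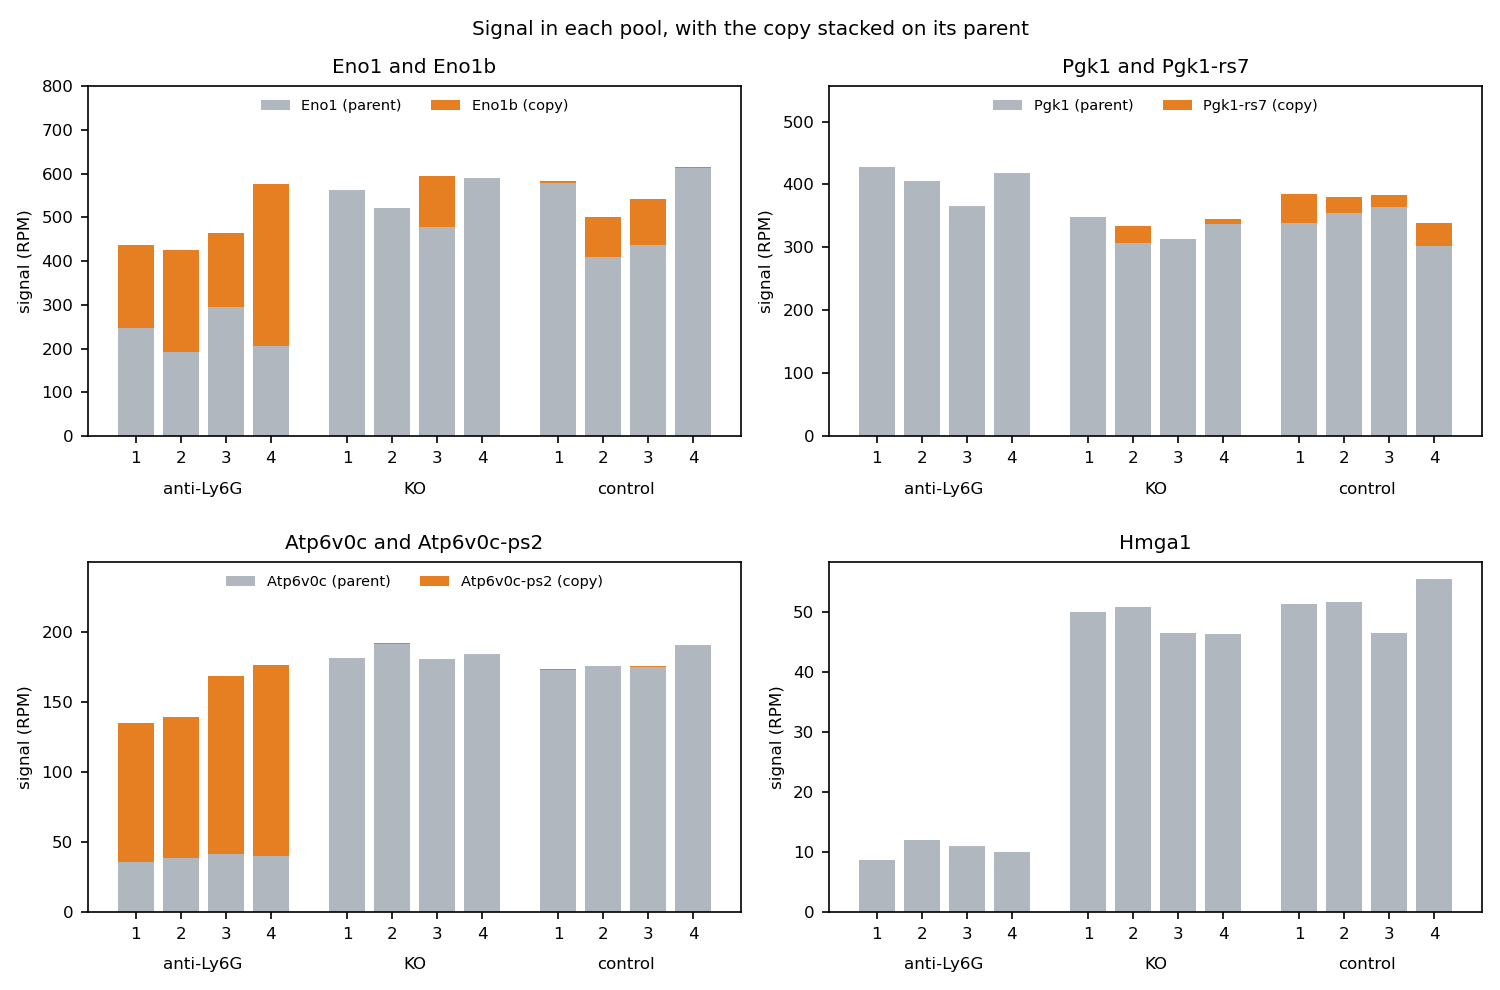
Signal in RPM of each parent (grey) with its copy stacked on it (orange), and of Hmga1 alone, for pools 1 to 4 of the anti-Ly6G, KO and control groups. Atp6v0c-ps2 fills most of each anti-Ly6G bar and is at or near 0 in the other 8 pools. Eno1b appears in all 3 groups, Pgk1-rs7 is largest in control pools 1 and 4, and Hmga1 is lowest in the 4 anti-Ly6G pools.

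Eno1 was lower and Eno1b higher in the anti-Ly6G pools, but this pair also varied strongly inside the KO and control groups. Eno1 had 246.4, 193.3, 295.6 and 205.8 RPM in anti-Ly6G pools 1 to 4, 562.8, 520.9, 477.6 and 589.3 RPM in KO pools 1 to 4, and 579.5, 409.3, 437.9 and 614.2 RPM in control pools 1 to 4. Eno1b had 191.4, 231.8, 168.1 and 370.1 RPM in anti-Ly6G pools, 0, 0, 118.1 and 1.63 RPM in KO pools, and 3.34, 90.9, 104.1 and 1.72 RPM in control pools. The anti-Ly6G pools were lowest for Eno1 and highest for Eno1b, with no overlap with the control pools. Control pools 2 and 3, where Eno1b was near 100 RPM, were also the control pools with the least Eno1, and KO pool 3 stood in the same place within the KO group.

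The Eno1b share of the pair was 43.7, 54.5, 36.3 and 64.3% in anti-Ly6G pools, 0, 0, 19.8 and 0.275% in KO pools, and 0.573, 18.2, 19.2 and 0.279% in control pools. The sum of Eno1 and Eno1b was 437.8, 425.1, 463.7 and 575.9 RPM in anti-Ly6G pools, 562.8, 520.9, 595.7 and 590.9 RPM in KO pools, and 582.9, 500.2, 542.1 and 615.9 RPM in control pools. Anti-Ly6G pools 1 to 3 lay below the control range and pool 4 lay inside it, and the anti-Ly6G mean of the sum was 0.849 of the control mean. A further processed pseudogene, Gm4735, holds 66.2% of the 25-mers of Eno1b and 21.6% of those of Eno1. It had 18.8, 4.51, 19.9 and 14.3 RPM in anti-Ly6G pools, 0, 3.69, 27.5 and 3.01 RPM in KO pools, and 7.37, 36.9, 27.1 and 0.661 RPM in control pools. Its highest KO pool and its 2 highest control pools were those with the most Eno1b, but among anti-Ly6G pools it was highest in pool 3, where Eno1b was lowest. With Gm4735 added, a choice made after seeing the data, the sum averaged 490.0 ± 70.3 RPM in anti-Ly6G pools, 576.1 ± 42.3 RPM in KO pools and 578.3 ± 33.6 RPM in control pools (SD, n = 4 each).

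Pgk1 went the other way: its copy was read mainly in control pools and was nearly absent from the anti-Ly6G pools. Pgk1-rs7 had 0, 0, 0.715 and 0 RPM in anti-Ly6G pools 1 to 4, the third value resting on 15 reads. It had 0, 27.5, 0.0832 and 7.27 RPM in KO pools 1 to 4 and 45.5, 24.6, 18.1 and 37.7 RPM in control pools 1 to 4. All 4 control pools held the copy, the anti-Ly6G pools lay below them, and the KO pools spread over both ranges. The Pgk1-rs7 share of the pair reached 0.195% in anti-Ly6G pool 3, 8.24% in KO pool 2 and 11.8% in control pool 1, so the copy always held the smaller part of this pair.

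Pgk1 itself had 428.1, 406.1, 365.8 and 418.7 RPM in anti-Ly6G pools 1 to 4, 347.9, 306.7, 313.9 and 337.3 RPM in KO pools 1 to 4, and 338.7, 355.3, 364.7 and 301.6 RPM in control pools 1 to 4. The lowest anti-Ly6G pool stood about 1 RPM above the highest control pool. The sum of Pgk1 and Pgk1-rs7 was 428.1, 406.1, 366.6 and 418.7 RPM in anti-Ly6G pools, 347.9, 334.2, 314.0 and 344.6 RPM in KO pools, and 384.2, 379.9, 382.8 and 339.3 RPM in control pools. Once summed, anti-Ly6G pool 3 lay inside the control range and the groups overlapped. The anti-Ly6G mean minus the control mean was 64.6 RPM for Pgk1, -31.3 RPM for Pgk1-rs7 and 33.3 RPM for their sum.

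**Figure D2:**
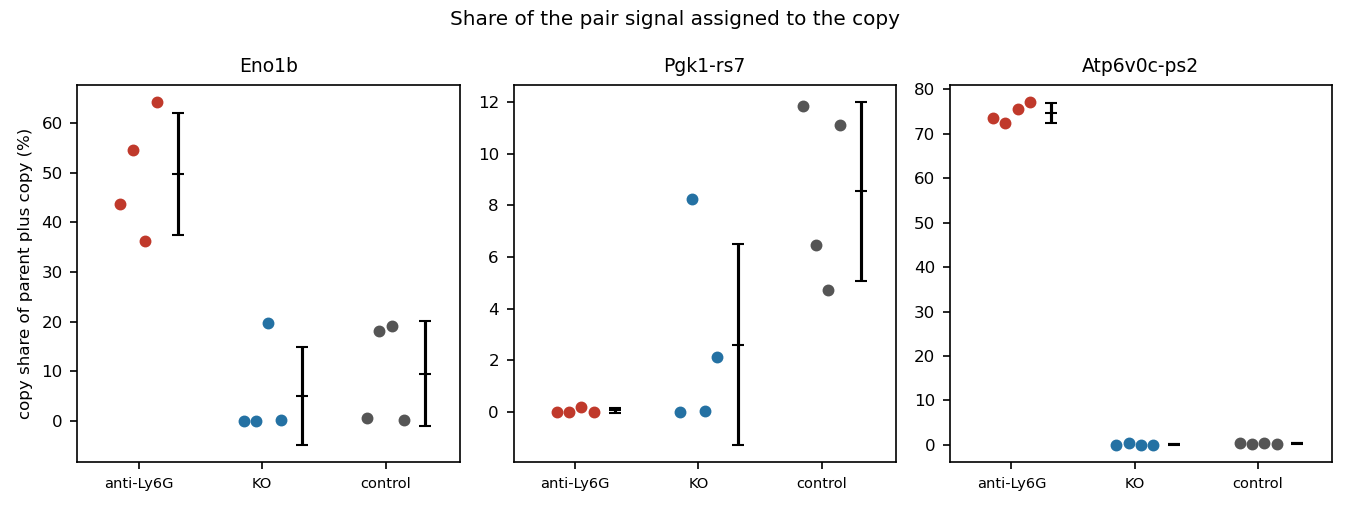
Share of the pair's signal under the copy, in percent, for each pool (points) of the anti-Ly6G, KO and control groups, with the mean and SD of 4 pools beside them; each panel has its own scale, and SD bars can reach below 0. The anti-Ly6G pools are highest for Eno1b and Atp6v0c-ps2. For Pgk1-rs7 they lie below all control pools but not below all KO pools. Eno1b and Pgk1-rs7 also spread within KO and control pools.

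On the log2(RPM + 0.5) scale, the difference between anti-Ly6G and control pools was -2.25 (SE 0.09) for Hmga1, -2.18 (SE 0.06) for Atp6v0c and -0.22 (SE 0.08) for its sum with Atp6v0c-ps2. It was -1.11 (SE 0.15) for Eno1 and -0.24 (SE 0.10) for its sum with Eno1b. It was 0.25 (SE 0.08) for Pgk1 and 0.12 (SE 0.07) for its sum with Pgk1-rs7. For all 3 pairs the sum differed less from control than the parent did, and it kept the parent's direction. Pairs were chosen for opposite directions, and each copy changed by fewer RPM than its parent. Such a sum largely follows from this, so nothing is read from it. The differences of the copies were 3.77 for Eno1b, -5.59 for Pgk1-rs7 and 6.78 for Atp6v0c-ps2, values that depend on the fit because low pools are near 0. The Eno1b difference was 2.26 with edgeR and -1.22, the opposite direction, with the mitochondria label as a covariate. The effect of that label is estimated from the KO pools alone. There Eno1b was 118.1 and 1.63 RPM with the NZB label, and 0 RPM in both pools with the C57 label. In the whole table, 3.25% of genes differed by at least 1 on this scale in either direction.

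**Figure D3:**
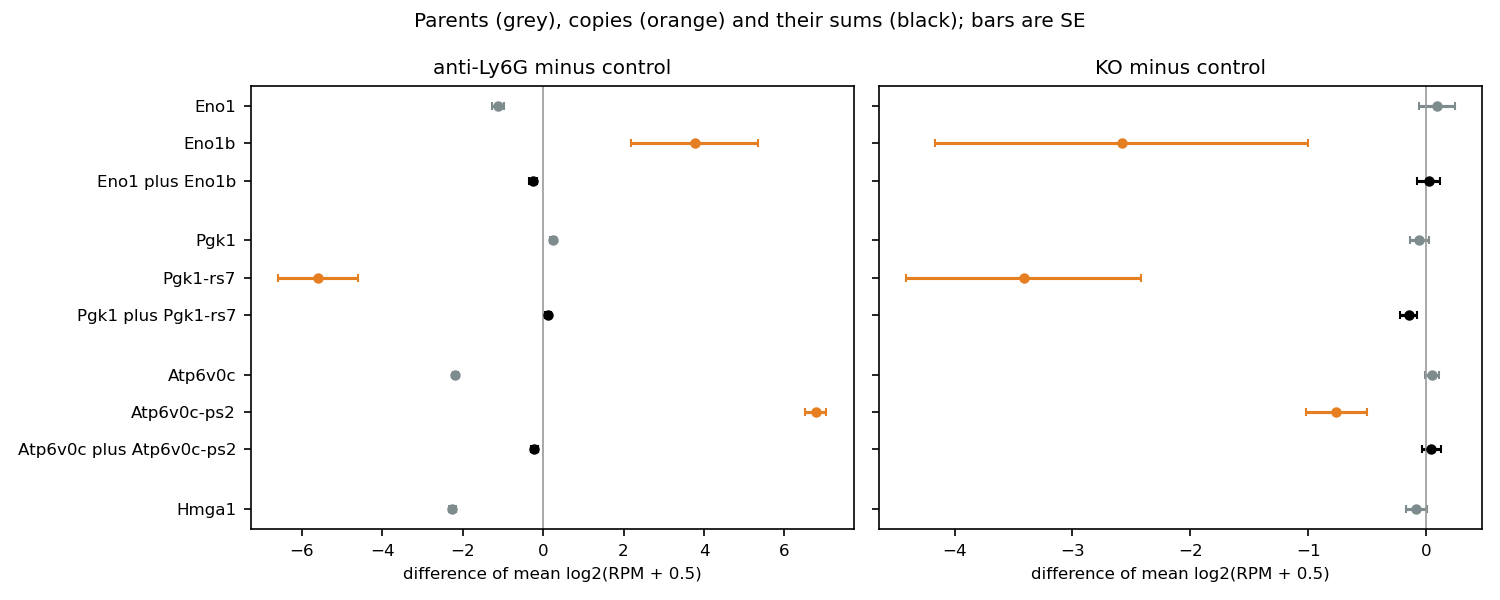
Differences of mean log2(RPM + 0.5) with their SE, anti-Ly6G minus control and KO minus control, for each parent (grey), copy (orange) and sum (black), with a separate scale for each panel. In anti-Ly6G minus control the sums of the 3 pairs lie between -0.24 and 0.12. Each is closer to 0 than its parent, which largely follows from choosing pairs that ran in opposite directions. In KO minus control the parents and sums all lie within 0.15 of 0.

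The comparison of KO with control pools was not used to choose the members, although it uses the same control pools. Atp6v0c-ps2 passed the filter (a mean signal of 1 in a group) only through its anti-Ly6G pools, so it is left out of the counts here. None of the other members passed limma's test (adjusted p under 0.05 over all 11791 genes), against 1.12% of all genes. The same held for edgeR on the recovered reads and for DESeq2. Of these members, Pgk1-rs7 alone had an unadjusted p under 0.05 by limma, and none had by edgeR or DESeq2. The share of all genes at that unadjusted threshold is not given, so this is not read as a result. The 4 parents differed by -0.08 (SE 0.09, Hmga1), 0.09 (SE 0.15, Eno1), -0.06 (SE 0.08, Pgk1) and 0.05 (SE 0.06, Atp6v0c) on the log2 scale, with limma adjusted p of 0.675, 0.778, 0.738 and 0.711. None of the members other than Atp6v0c-ps2 separated the KO from the control pools, which 12.4% of all genes did.

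The copies gave larger but unsteady values in that comparison. Pgk1-rs7 differed by -3.41 (SE 1.00) with a limma adjusted p of 0.0994, and its sum with Pgk1 by -0.15 (SE 0.07) with an adjusted p of 0.281. Without KO pool 2, which held 522 of the 676 KO reads of Pgk1-rs7, the difference was -4.52 with a limma adjusted p of 0.0336. Leaving out the KO pool with the most reads favours a lower KO value, so nothing is read from that p. Atp6v0c-ps2 differed by -0.76 (SE 0.26), and by -1.07 without KO pool 2, which held all 13 KO reads. It averaged 0.171 RPM in KO and 0.570 RPM in control pools, and only its anti-Ly6G pools took it past the filter. No p is therefore given for it. Eno1b differed by -2.58 (SE 1.59) with an adjusted p of 0.399. The sums of the Eno1 and Atp6v0c pairs differed by 0.02 (SE 0.10) and 0.05 (SE 0.08), with adjusted p of 0.935 and 0.809.

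Within the KO group, pools 3 and 4 carried the mitochondria label of the anti-Ly6G pools. Atp6v0c-ps2 had 0 reads in both. Hmga1 had 46.5 and 46.4 RPM in KO pools 3 and 4 (NZB), against 50 and 50.9 RPM in KO pools 1 and 2 (C57). Atp6v0c had 180.5 and 183.9 RPM in KO pools 3 and 4, against 181.5 and 191.5 RPM in KO pools 1 and 2. KO pools 3 and 4 differ from the anti-Ly6G pools in genotype as well as in the antibody, and the part of the label was not tested. For Eno1b the 2 NZB-labelled KO pools differed from each other, with 2838 and 34 reads, and both C57-labelled KO pools had 0.

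The spread between pools of the same group was also compared between the sums and their parts. For Eno1 and Eno1b the SD within groups was 70.4 RPM for the parent, 69.9 RPM for the copy and 53.0 RPM for the sum. The variance of the sum was 0.285 of the summed variances of the parts. This ratio was 0.644 for the Pgk1 pair and 1.17 for the Atp6v0c pair. Only the Eno1 pair had a ratio under 0.5, as did 7.75% of 374 other pairs of the table; this is a description of 12 pools, without a test. Those other pairs are rows that share at least 50% of the 25-mers of the smaller partner, and their median ratio was 1.03. Eno1 and Eno1b, each paired with Gm4735, are among them.

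The share of the lower partner varied over the pools in many pairs of rows that share sequence, and such a share also moves where either gene changes by itself. Over the 12 pools the copy share spanned 77.2 percentage points for Atp6v0c-ps2, 64.3 for Eno1b and 11.8 for Pgk1-rs7. The other 374 pairs include Eno1b with Gm4735 (98.1 points) and Eno1 with Gm4735 (8.26 points), so member rows also enter this background. Among the other 374 pairs, the share of the lower partner had a median range of 14.5 points. It spanned at least 10 points in 234 pairs (62.6%) and at least 50 points in 69 pairs (18.4%). Both partners were major urinary protein (Mup) genes in 78 of the other pairs, and without these 35 of 296 pairs (11.8%) spanned at least 50 points. The range of Pgk1-rs7 was equalled or exceeded in 211 of the 374 other pairs. Anti-Ly6G and control pools did not overlap in the share for 25.4% of the other pairs, and KO and control pools did not for 4.81%. All 3 member pairs separated anti-Ly6G from control in the share, which the choice of members fixed, and none separated KO from control.

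**Figure D4:**
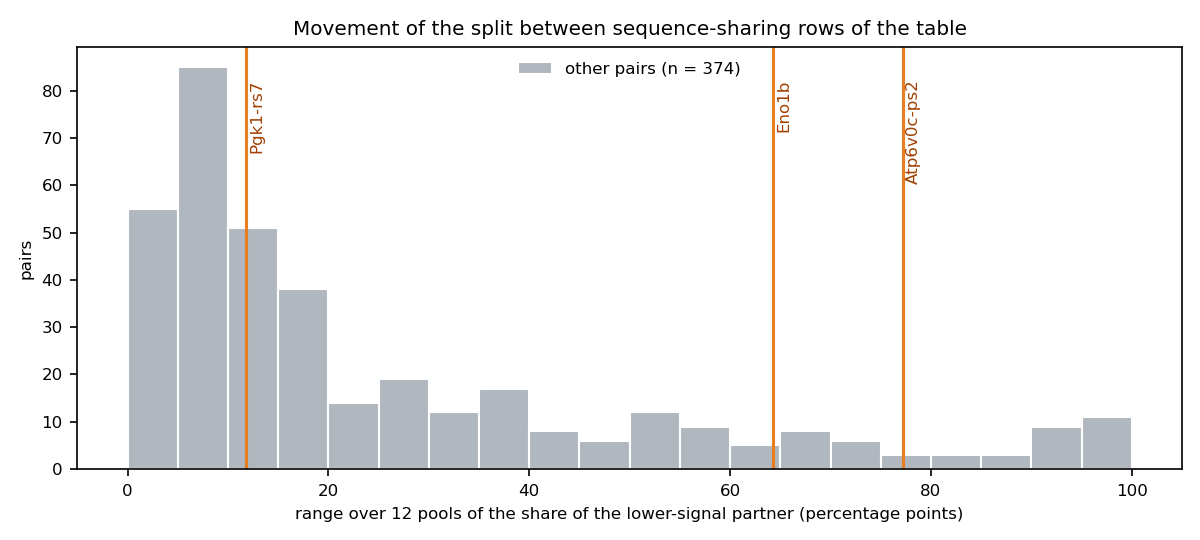
Number of pairs by the range over 12 pools of the lower partner's share, in percentage points, for 374 other pairs of table rows that share sequence (grey bars of 5 points), with the 3 member pairs as lines. Eno1b and Atp6v0c-ps2 lie in the upper tail, at 64.3 and 77.2 points, and Pgk1-rs7 lies in the body of the distribution, at 11.8 points.

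Profiles over the 12 pools were set side by side by the root mean square of their differences in gene-centred log2(RPM + 0.5). The row nearest to Hmga1 was Atp6v0c (0.106), and the next were Rnps1 (0.313) and Trim30d (0.336). Nearest to Atp6v0c were Hmga1 (0.106), Rnps1 (0.302) and Trim30d (0.316). Hmga1 and Atp6v0c were thus each other's nearest row, a description of values that include the anti-Ly6G against control difference used to choose both. Rnps1, an RNA-binding protein gene also on chromosome 17, had 6.87 to 9.94 RPM in anti-Ly6G pools, 25.5 to 26.3 RPM in KO pools and 26.3 to 29.0 RPM in control pools. Its processed pseudogene Gm9825 had 13.2 to 20.2 RPM in anti-Ly6G pools, at most 0.264 RPM in KO pools and 0 RPM in control pools. The sum of Rnps1 and Gm9825, formed after seeing the data, was 24.8 ± 3.74 RPM in anti-Ly6G, 25.9 ± 0.319 RPM in KO and 27.6 ± 1.11 RPM in control pools (SD, n = 4 each), with overlap between anti-Ly6G and control pools.

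The rows nearest to Atp6v0c-ps2 were Rps13-ps1 (0.462), Rps2-ps10 (0.615) and Cyp2c39 (0.695). Rps13-ps1 and Rps2-ps10 are annotated as processed or transcribed processed pseudogenes, with 5.25% and 2.03% unique 25-mers. Cyp2c39, a cytochrome P450 gene, had 65.5% unique 25-mers, with 412.1 to 507.3 RPM in anti-Ly6G pools, 3.53 to 6.03 RPM in KO pools and 4.51 to 8.13 RPM in control pools.

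Eno1 was nearest to Plxna1 (0.189), Gsn (0.193) and Tead1 (0.198), and Pgk1 to Cops3 (0.057), Uqcrc2 (0.057) and Mocs2 (0.062). The profiles of Eno1b and Pgk1-rs7 had no close match. Nearest to Eno1b were Gm13841 (1.99), Cyp2a4 (2.29) and Gm4735 (2.37), and nearest to Pgk1-rs7 were Scd1 (1.89), Acpp (1.96) and Gm5096 (1.99).

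The other genes of the members' pathways were looked at to place the parents. Of 20 measured glycolysis genes other than the members, 6 were lower and 0 higher in anti-Ly6G than in control pools by limma at an adjusted p under 0.05, against 15.3% of all genes lower and 15.1% higher, 30.4% in all. Their median log2 difference was -0.24, against -0.0022 over all genes. Means are given ± SD (n = 4 pools) with the log2 difference. Pkm, the muscle-type pyruvate kinase, averaged 19.9 ± 2.07 RPM in anti-Ly6G and 56.9 ± 17.9 RPM in control pools (log2 -1.45, SE 0.18, limma adjusted p = 1.25e-04). Gapdh, the glyceraldehyde phosphate dehydrogenase, averaged 172.3 ± 6.36 RPM in anti-Ly6G and 224.4 ± 10.6 RPM in control pools (log2 -0.38, SE 0.06, limma adjusted p = 7.56e-04). Hk3, a hexokinase, averaged 5.01 ± 0.521 RPM in anti-Ly6G and 10.3 ± 4.32 RPM in control pools (log2 -0.89, SE 0.20, limma adjusted p = 0.00521). In KO against control none of the 20 passed limma's test or edgeR's, and 1 passed DESeq2's. At an unadjusted limma p under 0.05 there were 4 higher and 3 lower. The share of all genes at that threshold is not given, so these counts are not read as a result.

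Of 17 measured V-ATPase genes other than Atp6v0c, 4 were higher and 3 lower in anti-Ly6G than in control pools, with a median log2 difference of 0.02. Of all genes, 15.1% were higher and 15.3% lower. Atp6v0d2, a subunit prominent in macrophages and osteoclasts, averaged 9.08 ± 1.66 RPM in anti-Ly6G and 22.1 ± 5.71 RPM in control pools (log2 -1.22, SE 0.23, limma adjusted p = 0.00194). Tcirg1, the a3 subunit, averaged 36.5 ± 2.96 RPM in anti-Ly6G and 55.6 ± 10.0 RPM in control pools (log2 -0.59, SE 0.11, limma adjusted p = 0.00205). Atp6v0b, the ring subunit c'' beside subunit c, averaged 74.2 ± 3.03 RPM in anti-Ly6G and 56.4 ± 4.74 RPM in control pools (log2 0.40, SE 0.07, limma adjusted p = 0.00162). No V-ATPase gene passed in KO against control by limma, edgeR or DESeq2. At an unadjusted limma p under 0.05, 2 were higher. Again no share of all genes is given, so this count is not read as a result.

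Of 10 measured high mobility group genes other than Hmga1, 4 were lower and 0 higher in anti-Ly6G than in control pools, with a median log2 difference of -0.05. Of all genes, 15.3% were lower and 15.1% higher. Hmgb2, a DNA-bending chromatin protein, averaged 5.77 ± 1.21 RPM in anti-Ly6G and 12.7 ± 4.59 RPM in control pools (log2 -1.04, SE 0.21, limma adjusted p = 0.00250). Hmgn2, a nucleosome-binding protein, averaged 33.3 ± 4.13 RPM in anti-Ly6G and 48.5 ± 4.84 RPM in control pools (log2 -0.54, SE 0.11, limma adjusted p = 0.00294). The processed pseudogene Gm10182, which shares sequence with Hmgn2, averaged 19.6 ± 8.37 RPM in anti-Ly6G and 0.315 ± 0.630 RPM in control pools. The sum of Hmgn2 and Gm10182, also formed after seeing the data, was 52.9 ± 9.0 RPM in anti-Ly6G and 48.8 ± 5.43 RPM in control pools, so the lower value of Hmgn2 was not seen in the sum. Of the 13 genes of the 3 lists that were lower in anti-Ly6G pools, 3 shared sequence with another row, Hmgn2, Hmgb2 and Gpi1. Sharing meant at least 50% of the 25-mers of the smaller partner, with a partner row of lower signal. Any 25-mer found in very many genes was skipped, so the remaining genes are not shown to be free of shared reads. For Hmgn2, Hmgb2 and Gpi1 the split of signal is uncertain. Unlike that of Hmgn2, the other 2 sums kept a lower mean. Hmgb2 plus Gm13237 was 9.61 ± 1.41 RPM in anti-Ly6G and 21.9 ± 7.92 RPM in control pools, without overlap. Gpi1 plus Gm1840 was 174.0 ± 23.0 RPM in anti-Ly6G and 210.1 ± 11.3 RPM in control pools, with overlap. Hmgn5, of the same family as Hmgn2, averaged 40.4 ± 3.38 RPM in anti-Ly6G and 54.1 ± 6.59 RPM in control pools (log2 -0.41, SE 0.09, limma adjusted p = 0.00418). Hmgn5 was also the single high mobility group gene that passed in KO against control, where 0.534% of all genes were lower, at 36.9 ± 1.65 RPM in KO and 54.1 ± 6.59 RPM in control pools (log2 -0.54, SE 0.09, limma adjusted p = 0.0184). The mitochondria label was also used as a covariate, with its effect estimated from the KO pools alone. Then 3 glycolysis genes, 1 V-ATPase gene and 0 high mobility group genes were lower and 2 V-ATPase genes were higher in anti-Ly6G pools. With this covariate Hmgn5 no longer passed in KO pools. Its KO call was also lost with KO pools 1 and 2 alone, without KO pool 3 and without control pool 1 or 2.

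**Figure D5:**
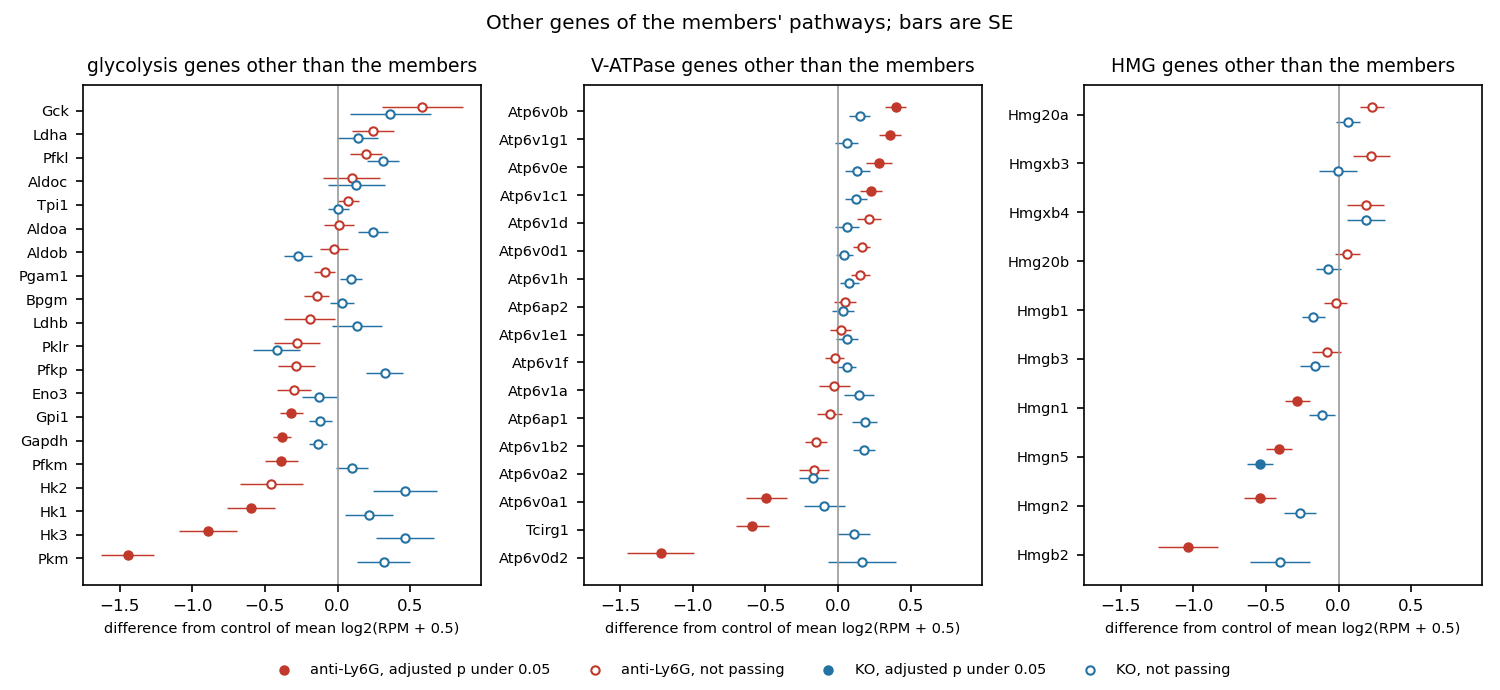
Differences from control of mean log2(RPM + 0.5) with their SE for the measured glycolysis, V-ATPase and high mobility group (HMG) genes other than the members, in anti-Ly6G (red) and KO (blue) pools; filled points passed limma's test. In anti-Ly6G pools 6 glycolysis, 3 V-ATPase and 4 HMG genes were lower and 4 V-ATPase genes higher, and in KO pools 1 HMG gene was lower. Of all genes, 15.3% were lower and 15.1% higher in anti-Ly6G pools, and 0.534% were lower in KO pools.

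Cell type markers moved in the same comparison, and fewer cells of a type and less RNA per cell cannot be told apart in bulk liver. The counts below stand against 15.3% of all genes lower and 15.1% higher in anti-Ly6G than in control pools by limma. Hepatocyte markers were high in all pools, with Alb averaging 96220 RPM in anti-Ly6G, 79180 RPM in KO and 85590 RPM in control pools, and 1 of 6 hepatocyte markers, Cps1, was lower in anti-Ly6G than in control pools. Of 6 macrophage markers 4 were lower, and their summed level was 168.5 to 272.0 RPM in anti-Ly6G and 315.2 to 641.5 RPM in control pools. Of 11 neutrophil markers looked for, 4 were in the table and 3 of these were lower, with a summed level of 6.31 to 10.8 RPM in anti-Ly6G and 12.5 to 21.4 RPM in control pools. Of 5 stellate cell markers 2 were lower, at 38.9 to 47.3 RPM in anti-Ly6G and 59.3 to 105.8 RPM in control pools. Of 4 cycling cell markers none passed, at 23.8 to 29.0 RPM in anti-Ly6G and 14.8 to 35.6 RPM in control pools. None of these markers passed limma's test in KO against control, against 1.12% of all genes. Unadjusted limma p under 0.05 were found for 3 stellate and 1 cycling cell markers, all higher in KO pools. With no share of all genes at that threshold given, these counts are not read as a result. The part of the markers in the members' differences was not tested.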

How the data were processed

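The members, the lists of other genes and the comparisons were chosen with earlier results of these data known. The authors deposited 1 table with a normalized signal per gene for 12 pools. Per the submitters' processing notes the build was GRCm38 and the tools were Bowtie2 2.0.6, RSEM 1.2.3, edgeR and cutadapt 1.2.1, with no roles given. The filter that set the rows of the table is not given in the sources used here. Each signal was divided by the value of 1 read to recover reads; 100% of values came out whole within 0.02. Low values alone sufficed to recover reads in 4 of the 12 columns.

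The reported test was limma-trend (limma 3.58.1, R 4.3.3) on log2(signal + 0.5), with all 12 pools in 1 fit, group as the only term and Benjamini-Hochberg adjustment over 11791 genes at 0.05. This scale understates the change of low genes. A filter asking for a mean signal of 1 in a group removed 0 genes. Alternatives were edgeR 4.0.16 (quasi-likelihood) and DESeq2 1.42.0 on recovered reads, pseudocounts of 0.1 and 1, 2 groups alone, the mitochondria label, a block and pools left out. On the recovered reads edgeR called 153 genes in KO against control and DESeq2 called 577. The fits were tested on simulated data.

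The sum of a pair was formed before the log, and the copy share is copy over parent plus copy in each pool. GENCODE vM21 held 11672 of the 11791 IDs. A transcript pair was aligned locally with Biopython 1.88, and 25-mers were compared on the same strand. Named genes were the 7 members, the 3 genes of lowest p in each list, genes of the lists called in KO, the 5 pairs by name with the largest share range, and 3 nearest profiles a member. An item of the set is not reported here.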

Additional observations from a re-analysis of the deposited data

Results flagged for a closer look

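In each group of 4 pools, the highest or lowest value was marked where its gap to the next pool was a larger part of the group's range than Dixon's critical value for 4 samples. Of 39 groups of values 9 were marked. Chance marks about 1 in 20 of independent groups with normally distributed values. Levels, shares and sums rest on the same reads here, so the same pool can be marked more than once. The number of marks is therefore not read as an excess over chance. Several rest on few reads. Pgk1-rs7 stood apart in anti-Ly6G pool 3 at 0.715 RPM (15 reads), with a share of 0.195%. Atp6v0c-ps2 stood apart in KO pool 2 at 0.686 RPM (13 reads), with a share of 0.357%.

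The other marked values rest on many reads. Eno1b stood apart in KO pool 3 at 118.1 RPM (2838 reads), with a share of 19.8%, against at most 1.63 RPM in the other KO pools. Control pool 4 was highest for Atp6v0c at 190.4 RPM and for the sum of Atp6v0c and Atp6v0c-ps2 at 190.8 RPM, and lowest for the sum of Pgk1 and Pgk1-rs7 at 339.3 RPM. Causes were not tested.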

How the results depend on the processing

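Copy shares from summed or recovered reads stayed within 1 SD of the reported means. Leaving out 1 pool moved some mean shares by over 1.5 times: in KO pools Eno1b, 5.03%, was 0.0918% without pool 3, Pgk1-rs7, 2.59%, was 0.712% without pool 2, and Atp6v0c-ps2, 0.0892%, was 0% without pool 2. In control pools Eno1b, 9.56%, was 6.34% without pool 3, and in anti-Ly6G pools Pgk1-rs7, 0.0488%, was 0% without pool 3. In KO against control, 132 genes were called in all, against 577 with DESeq2, 20 with the replicate block, 79 with the mitochondria covariate, 58 with KO pools 1 and 2 alone and 3 to 319 with 1 pool left out, the lowest without control pool 2 and the highest without control pool 4. Anti-Ly6G against control gave 3580 calls, 973 with the mitochondria covariate and 3445 with the replicate block. Whether pool numbers pair the samples is not known. Deviations from group means in same-numbered control pools correlated at 0.01 to 0.13 with KO pools and at -0.11 to 0.02 with anti-Ly6G pools. Of the KO pools 3 of 4, and of the anti-Ly6G pools 1 of 4, correlated best with their own number. The block changed no call on a member or sum and ended the KO call of Hmgn5. Small KO differences changed sign: Eno1 to -0.0060 without control pool 2, and the Eno1 and Eno1b sum to -0.0448 with the mitochondria covariate and with KO pools 1 and 2 alone, to -0.0319 without control pool 2, to -0.0028 without KO pool 3 and to -0.0064 with Gm4735 added. With 1 pool left out, KO differences ranged from -1.07 to -0.65 for Atp6v0c-ps2, -4.52 to -2.58 for Pgk1-rs7, -0.006 to 0.189 for Eno1 and -0.0319 to 0.068 for the Eno1 sum. With the mitochondria covariate, whose effect rests on the KO pools, the anti-Ly6G difference of Eno1b was -1.22. With KO and control pools alone the filter removed Atp6v0c-ps2, and no unfiltered fit differed because the filter removed 0 genes. Depth limits the copies near 0 reads. The cause of these shifts was not tested.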

Other observations

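Of 46 other pairs that the annotation names as a gene and its pseudogene or related sequence, the 5 with the largest range of the copy share were ribosomal protein pairs and Tma7. Rps13-ps2 took a mean share of its pair with Rps13 of 15.2% in anti-Ly6G, 57.1% in KO and 63.8% in control pools. Rps13-ps1, a second copy of the same parent, took 57.1% in anti-Ly6G, 0% in KO and 0.271% in control pools. The 2 copies of Rps13 thus differed in opposite directions between anti-Ly6G and control pools. Rpl34-ps1 took 0.118% in anti-Ly6G, 53.1% in KO and 29.1% in control pools. Tma7-ps took 33.1% in anti-Ly6G, 5.97% in KO and 2.51% in control pools. Rpl27-ps3 took 82.4% in anti-Ly6G, 83.6% in KO and 79.1% in control pools, and its range of 32.3 points came from the spread within groups. These shares are a description, without a test.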
